A study of Rattus norvegicus with 24 samples.

Results

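The response of neonatal rat microglia to lipopolysaccharide (LPS) in normoxia was measured by comparing 6 Nx LPS samples with 6 Nx vehicle samples, which are 12 of the 24 RNA-seq samples of the series. They were selected by their labels for oxygen and injection, and the other 12 samples came from pups exposed to intermittent hypoxia (IH). All were CD11b+ cells isolated with magnetic beads from the brains of Sprague-Dawley rats on postnatal day 9. From postnatal day 1 the pups had spent 8 days with their dams as Nx controls. On each of these days they received alternating room air (21% O2) for 8 h. At 16 h after the last exposure they received an intraperitoneal injection, and cells were taken 3 h later. The vehicle is named as saline by the labels and as HBSS by the methods of the study. The LPS dose is given as 0.1 mg/kg in the design, while the sample labels give the same number per mL. Each arm held 3 male and 3 female samples, named here by sex, treatment and replicate number. The study calls them biological replicates, and whether animals of different groups shared a litter was not stated, so the p-values measure the spread between these samples.

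LPS is a component of the outer membrane of Gram-negative bacteria. Macrophages, including the microglia of the brain, sense it through Toll-like receptor 4. One branch of the signal releases NF-κB into the nucleus, where it turns on cytokine, chemokine and adhesion genes, and another branch induces type I interferon, which turns on a further set of genes that includes Cxcl10. CD11b is carried by microglia but also by monocytes, neutrophils and border macrophages, so the isolate can hold some of these cells as well. The study states, citing earlier work, that most CD11b+ cells isolated this way were microglia by their low CD45. The deposited tables name genes by Ensembl identifier only, and 21 identifiers were paired with a symbol by the study. None of the 73 markers of microglia or other cell types that had been listed is among those 21, so the cell type of the isolate could not be checked against its markers here. In such bulk samples, a change in the RNA of each cell and a change in the mix of cells cannot be told apart.

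The 12 samples held between 6842108 and 8055158 counts assigned to genes. Total counts averaged 7444066 ± 451972 in LPS samples and 7478084.5 ± 425855 in vehicle samples (SD, n = 6 each), a difference smaller than the spread between samples (exact permutation test within sex, two-sided, p = 0.9, adjusted p = 0.97 over 5 library measures). LPS samples had counts in 15343 ± 143 genes and vehicle samples in 15459 ± 103 (exact permutation test, p = 0.145, adjusted p = 0.725). One treated library stood apart from the rest. The sample Male Nx LPS 2 had the lowest value of the 6 LPS samples for every one of 12 known NF-κB target genes, and the main counts and the results of the genes in which it stood furthest from the other LPS samples are also given without it. Among vehicle samples, 23.4% of the reads of Male Nx 2 had aligned to more than 1 place, against 11.7% to 13.8% in the other 5.

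LPS changed the expression of 1768 of the 12860 genes tested, or 13.7% (edgeR quasi-likelihood F test with sex as a covariate, Benjamini-Hochberg FDR below 0.05). It raised 1048 genes, 8.15% of those tested, and lowered 720, or 5.6%. Raised genes thus made up 59.3% of the calls. That split depended on the scaling of libraries, and it also moved with a method that weights the samples. The trimmed mean of M-values (TMM) was used here, whereas scaling by library size alone called 892 raised and 982 lowered genes, a raised share of 47.6%. With TMM but limma voom with sample quality weights, 1848 genes were raised and 1826 lowered, a raised share of 50.3%. The raised share was 56.6% with the edgeR likelihood ratio test and 56.1% with DESeq2. The median log2 fold change of all tested genes was −0.04 with TMM and −0.12 without it. Without Male Nx LPS 2 the calls grew to 2289, with 1277 raised (9.93%) and 1012 lowered (7.87%), and they shared 1713 genes with the 1768. Leaving out other samples mostly cut the calls, down to 1179 (785 raised, 394 lowered) without Male Nx LPS 3. Lowered calls also fell by over 1.5 times without Male Nx 1 (478), Female Nx 3 (463) and Female Nx LPS 3 (444).

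The raised genes moved further than the lowered ones, with TMM and with library size alone (median log2 fold changes of 1.00 and −0.73 in the latter). The median log2 fold change was 0.96 for raised genes, a 1.95-fold rise, with quartiles of 0.58 and 1.63. For lowered genes it was −0.74, a 1.66-fold fall, and the sizes had quartiles of 0.56 and 1.03. Changes of at least 1 log2 unit were seen in 502 raised genes (47.9%) and 192 lowered genes (26.7%). Without Male Nx LPS 2 these numbers were 583 and 306. At 2 log2 units the numbers were 191 (18.2%) and 18 (2.5%), and at 4 units they were 40 (3.82%) and 1. The largest rise was 8.70 log2 units and the largest fall 4.87. In 6 raised genes no vehicle sample had a count, so their fitted fold changes depend on the small count that edgeR adds. A test against a change of 1.5-fold, which is stricter than a test against no change, called 334 raised and 46 lowered genes. Levels below are given as CPM, the counts of a gene scaled to a common library size after TMM.

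**Figure D1:**
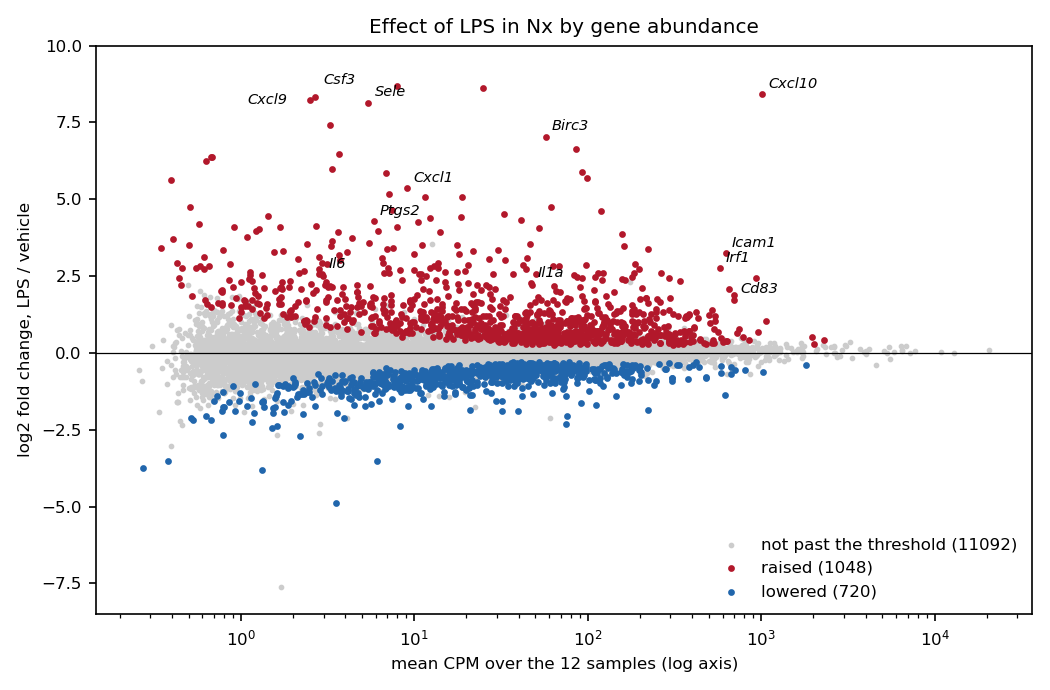
Log2 fold change with LPS in Nx (vertical axis) against mean CPM over the 12 samples (horizontal axis, log scale), 1 point per tested gene. Red points are the 1048 raised genes, blue points the 720 lowered genes and grey points genes past no threshold, and the 12 NF-κB target genes are named. Raised genes reach 8.70 log2 units while the largest fall is 4.87, and the Csf3 and Cxcl9 points, with no vehicle count, depend on the added count.

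Among the raised genes were all 12 of the NF-κB targets that the study lists by identifier, against 8.15% of all tested genes. These genes encode chemokines, cytokines, adhesion molecules, a transcription factor, an enzyme, an activation marker and a regulator of cell survival. The study lists them as NF-κB targets lower in females with IH and LPS than in females with Nx and LPS. The Female Nx LPS samples thus helped to choose them, so their direction, size, separation and calls are not independent evidence. Their median log2 fold change was 4.82, or 28.2-fold, against −0.04 over all tested genes, and their adjusted p-values were at most 0.00594. The smallest change was 1.73 for Cd83. Cxcl10 reached 8.41, while Csf3 and Cxcl9, with no vehicle count, have only lower bounds, and Sele, with 1, has a wide interval, so these 4 cannot be ranked. In 10 of the 12 genes every LPS sample lay above every vehicle sample, an arrangement seen in 4.37% of all tested genes.

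To show the DNA from which some of these genes are read, the upstream sequences of 4 targets are printed from the GRCr8 assembly (RefSeq), 5′ to 3′ on the strand of the gene, ending before the annotated start. Capitals mark matches to the κB motif, the DNA element bound by NF-κB dimers, on either strand, with overlapping matches merged. These 4 were chosen because a match lies upstream of the start. The stretch for Cxcl10 is chr14:15988816-15989065 on the + strand and runs from 250 bases upstream to 1 base upstream. The stretches for Cxcl1 (chr14:17479352-17479471, − strand), Il6 (chr4:5894606-5894725, − strand) and Irf1 (chr10:38417785-38417904, + strand) run from 150 to 31 bases upstream.
Cxcl10: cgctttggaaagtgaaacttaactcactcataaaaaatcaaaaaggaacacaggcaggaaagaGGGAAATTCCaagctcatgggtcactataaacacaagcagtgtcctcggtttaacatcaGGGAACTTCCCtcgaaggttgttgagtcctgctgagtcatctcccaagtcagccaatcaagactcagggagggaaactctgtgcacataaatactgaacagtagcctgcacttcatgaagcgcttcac
Cxcl1: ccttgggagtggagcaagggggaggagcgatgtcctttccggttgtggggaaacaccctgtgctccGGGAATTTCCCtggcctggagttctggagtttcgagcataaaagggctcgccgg
Il6: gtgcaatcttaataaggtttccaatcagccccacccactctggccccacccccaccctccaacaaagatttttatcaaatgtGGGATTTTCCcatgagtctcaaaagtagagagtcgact
Irf1: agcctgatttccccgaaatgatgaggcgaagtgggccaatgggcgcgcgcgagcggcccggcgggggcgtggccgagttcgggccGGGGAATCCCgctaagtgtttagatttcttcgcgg

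Cxcl10 held 2 κB stretches, Cxcl1, Il6 and Irf1 held 1 each. Promoters of 300 bases (250 before and 50 after the start) were found by symbol for 10 of the 12 targets, and 5 of them held a κB match, the fifth being Cd83. The motif occurred in 2087 of all 27457 promoters of that length, or 7.60%. The core of the interferon-stimulated response element, searched on both strands like the others, occurred in 3.77% of promoters and among the 10 targets in that of Cxcl10. The AP-1 motif TGANTCA occurred in 7.33%, and among the 10 in those of Cxcl10 and Il1a. A match of letters is a description and not a measured binding site.

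Of the 21 chemokine genes listed, 3 had an identifier, among them Cxcl10 (ENSRNOG00000022256). It encodes an interferon-induced chemokine that attracts activated T cells. Normalized expression was 4.54 to 8.57 in the 6 vehicle samples, with a median of 5.39. In LPS samples it was 2619, 121 and 3166 CPM in males and 2015, 1809 and 2397 CPM in females. The groups did not overlap, although Male Nx LPS 2 lay far below its 5 companions. Cxcl10 rose 340-fold (log2 8.41 ± 0.68 SE, edgeR adjusted p = 1.37e-05), and among all raised genes it gained the most CPM, 3.45% of the summed gain. Without Male Nx LPS 2 the log2 fold change was 8.70 (edgeR adjusted p = 1.39e-11). Cxcl1 (ENSRNOG00000002802), a neutrophil attractant, was at 0 to 0.857 CPM (median 0.327) in vehicle samples and at 1.62 to 41.3 CPM (median 15.9) in LPS samples. It rose 40.8-fold (log2 5.35 ± 0.74, edgeR adjusted p = 0.00042). Cxcl9 (ENSRNOG00000022242), a further interferon-induced attractant of T cells, had no count in any vehicle sample and between 0.406 and 10.7 CPM (median 5.17) in LPS samples. Taking 3 counts over the vehicle group as the floor, Cxcl9 was at least 74.0-fold higher with LPS (edgeR adjusted p = 0.00499). This bound sets pooled LPS counts against the floor and covers counting error in vehicle samples only, not the spread between samples.

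Cytokine genes differed widely in their level before treatment. Il1a (ENSRNOG00000004575), an interleukin released by stressed and activated cells, had 6.18 to 34.1 CPM (median 12.8) in vehicle samples and 20.2 to 116 CPM (median 81.7) in LPS samples. The lowest LPS value, that of Male Nx LPS 2, fell inside the vehicle range, and the other 5 LPS samples lay above it. Il1a rose 4.81-fold (log2 2.27 ± 0.46, edgeR adjusted p = 0.00553), and its log2 fold change was 2.50 without that sample (adjusted p = 0.000799). Il6 (ENSRNOG00000010278), a cytokine of the acute-phase response, was scarce throughout, at 0.275 to 1.33 CPM (median 0.850) without and 2.71 to 8.16 CPM (median 4.88) with LPS. The arms did not overlap, and Il6 rose 5.93-fold (edgeR adjusted p = 0.000353). Csf3 (ENSRNOG00000008525), the growth factor of neutrophils, had 0 counts in the 6 vehicle samples. In LPS samples Csf3 reached 13.9, 0.135 and 4.85 CPM in males and 5.09, 4.58 and 3.77 CPM in females. The value in Male Nx LPS 2 was a single count. By the same pooled bound, Csf3 was at least 77.7-fold higher with LPS (edgeR adjusted p = 0.00594). The edgeR adjusted p was 0.000175 without Male Nx LPS 2 and 0.00845 without Male Nx LPS 1, the sample highest in Csf3.

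Of the 10 adhesion and vascular genes listed, 4 had an identifier and 3 of these were raised. Icam1 (ENSRNOG00000020679), which lets leukocytes bind to other cells, had 103 to 145 CPM (median 114) in vehicle samples. With LPS it stood at 1077, 224 and 1546 CPM in males and at 1403, 1112 and 1423 CPM in females. All LPS samples exceeded all vehicle samples, and Icam1 rose 9.48-fold (log2 3.24 ± 0.35, edgeR adjusted p = 7.99e-05). Without Male Nx LPS 2 the log2 value for Icam1 was 3.49 (adjusted p = 1.30e-08). Sele (ENSRNOG00000002723), which encodes E-selectin and is best known from activated endothelium, had 1 count in all vehicle samples together and 480 in LPS samples. The ratio of these counts, scaled to library size, was 482, with a 95% interval of 86.1 to 19085 that covers counting error only. The LPS samples held between 2.44 and 22.3 CPM of Sele (median 7.35, edgeR adjusted p = 7.99e-05). Plat (ENSRNOG00000019018), the tissue plasminogen activator, was 1 of 9 further genes with a symbol and the only one of those to pass. Plat was at 13 to 31.5 CPM (median 14.7) without and 25.3 to 114 CPM (median 31.7) with LPS, so the arms overlapped. Its rise of 2.24-fold (log2 1.17 ± 0.32, edgeR adjusted p = 0.0282) shrank to a log2 of 0.75 without Male Nx LPS 1 and then missed the threshold (adjusted p = 0.0628). Plat also missed it without Male Nx 1 (0.0512), Male Nx 3 (0.0566), Female Nx 3 (0.0626) or Female Nx LPS 2 (0.0632), without the sex covariate (0.0588), in the fit to all 24 samples (0.0647) and against a 1.5-fold change (0.260), all adjusted p-values from edgeR.

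The other 4 targets were Birc3, Irf1, Ptgs2 and Cd83. Birc3 (ENSRNOG00000005731), an inhibitor of cell death that also acts in NF-κB signalling, had 0.562 to 1.26 CPM (median 0.757) in vehicle samples. With LPS it had 114, 11.8 and 160 CPM in males and 144, 136 and 118 CPM in females. Birc3 rose 131-fold with no overlap between the arms (log2 7.04 ± 0.58, edgeR adjusted p = 1.41e-05, and log2 7.28 without Male Nx LPS 2, adjusted p = 4.85e-10). Irf1 (ENSRNOG00000008144), a transcription factor of interferon responses, was already abundant, at 133 to 173 CPM (median 140) in vehicle samples. With LPS it had 1248, 156 and 1384 CPM in males and 944, 934 and 1357 CPM in females, the value of Male Nx LPS 2 lying within the vehicle range. Irf1 rose 6.74-fold (log2 2.75 ± 0.38, edgeR adjusted p = 0.000457). Its log2 fold change without that sample was 2.99 (adjusted p = 6.56e-08). Ptgs2 (ENSRNOG00000002525), which encodes the prostaglandin-forming enzyme COX-2, was at 0 to 1.14 CPM (median 0.582) without and 2.03 to 26.7 CPM (median 8.5) with LPS. The ranges did not meet, and Ptgs2 rose 19.6-fold (edgeR adjusted p = 0.00147). Cd83 (ENSRNOG00000018092), an activation marker of antigen-presenting cells, had 271 to 360 CPM (median 327) in vehicle samples and 422 to 1527 CPM (median 1169) in LPS samples. It moved the least of the 12, at 3.33-fold (edgeR adjusted p = 0.000702), and its arms did not overlap.

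**Figure D2:**
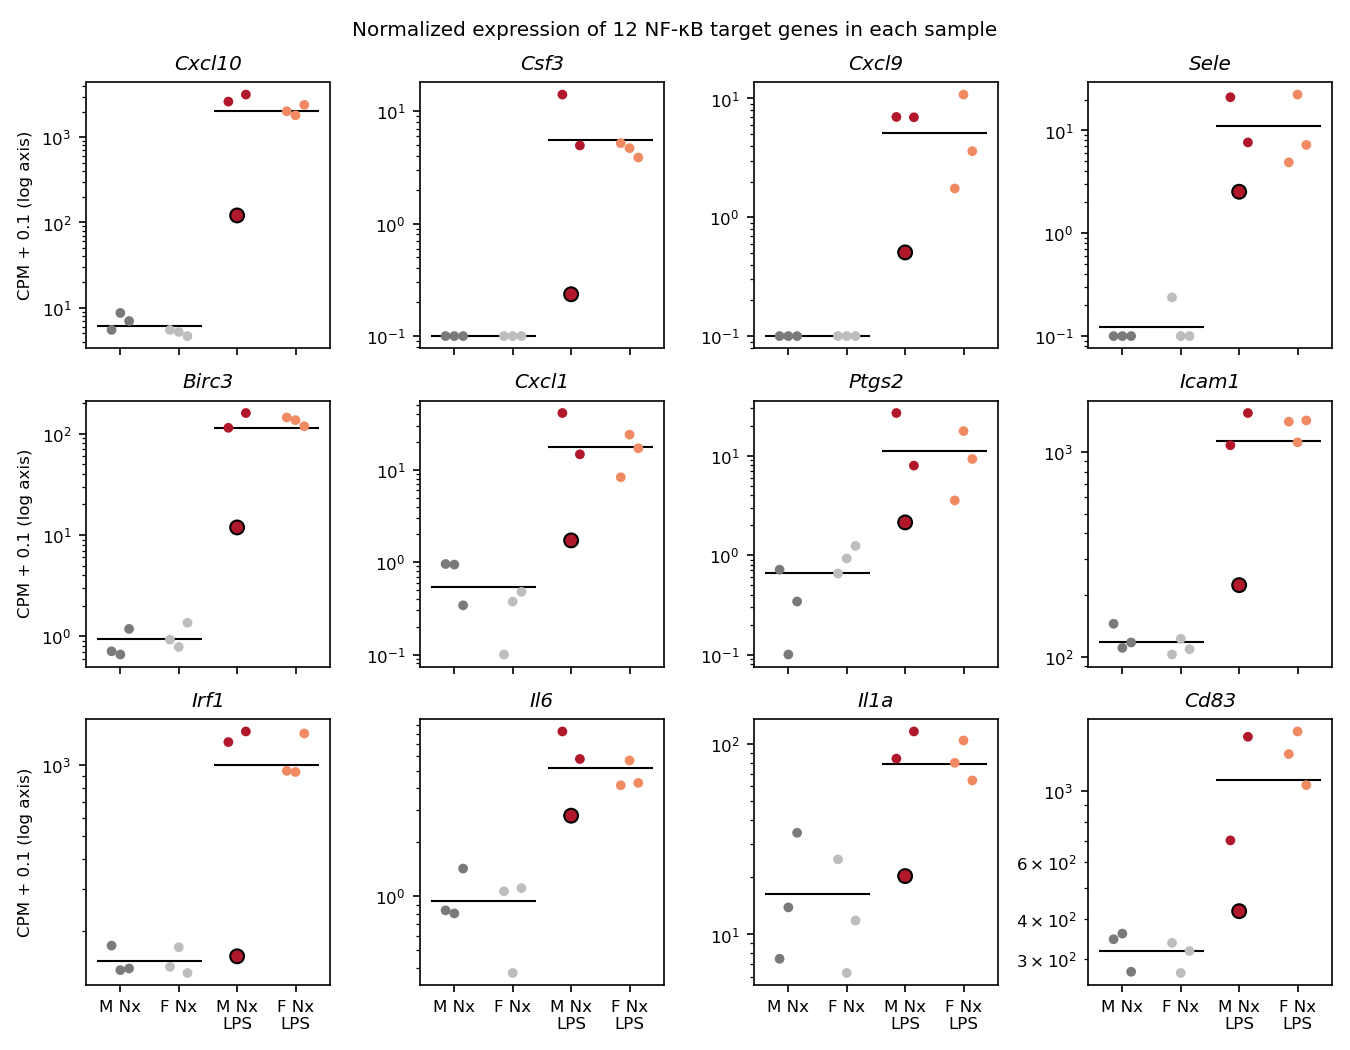
Normalized expression of the 12 NF-κB target genes in each Nx sample, as CPM plus 0.1 on a log axis, for males (M) and females (F) without and with LPS. Points are samples, horizontal lines the means of the 6 samples of an arm, and the outlined point is Male Nx LPS 2, which is the lowest LPS sample in all 12 panels.

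The remaining 8 genes with a symbol did not pass the test over both sexes. S1pr3, a receptor for sphingosine 1-phosphate, had a log2 fold change of −0.16 and 2.40 to 6.03 CPM without against 3.23 to 4.85 CPM with LPS. Slc25a45, of the mitochondrial carrier family, varied among the vehicle samples themselves. It had 3.92, 3.23 and 2.17 CPM in vehicle males and 46.0, 33.5 and 3.28 CPM in vehicle females, against 23.4 to 49.7 CPM in LPS samples (log2 1.64 ± 0.67, edgeR adjusted p = 0.133). AC134224.3 had the same arrangement, with 8.57, 19.5 and 15.8 CPM in vehicle males, 166, 339 and 9.97 CPM in vehicle females and 167 to 343 CPM with LPS (log2 2.29 ± 0.86, edgeR adjusted p = 0.0993). In both genes, Female Nx 1 and Female Nx 2 were therefore at the level of the treated samples. In males alone both were raised, Slc25a45 by 3.44 log2 units (edgeR adjusted p = 0.0135) and AC134224.3 by 4.29 (adjusted p = 0.00692). In females alone neither passed, Slc25a45 at 0.16 (edgeR adjusted p = 0.942) and AC134224.3 at 0.46 (adjusted p = 0.856). Their interaction with sex had unadjusted p-values of 0.00408 and 0.00481 and did not pass after adjustment (edgeR adjusted p = 1.00 for both). Cd7, a marker of T and natural killer cells, was below 5 CPM in 5 vehicle samples and at 40.3 CPM in Male Nx 2 (log2 −1.23, edgeR adjusted p = 0.552). The sign rested on that library: the log2 value for Cd7 was 0.19 without Male Nx 2, and −2.58 without Female Nx LPS 2. Adjusted p-values for Cyp4f39, Gpr15l, RGD1561143 and Mcpt1l1 lay between 0.331 and 0.780.

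The 2 raised and the 2 lowered genes with the smallest p-values of their direction carried no symbol. Expression of ENSRNOG00000046699 was 0.690 to 1.59 CPM in vehicle samples and 23.3 to 57.5 CPM in LPS samples. Unlike the named targets, it was highest in Male Nx LPS 2 (log2 5.07 ± 0.29, edgeR adjusted p = 2.11e-06). ENSRNOG00000005871 had 4.29 to 6.90 CPM without and 42.5 to 148 CPM with LPS, with Male Nx LPS 2 again at the bottom (log2 4.05 ± 0.25, edgeR adjusted p = 2.32e-06). The lowered gene ENSRNOG00000002152 had 82.7 to 141 CPM in vehicle and 31.6 to 49.3 CPM in LPS samples, a fall of 2.65-fold (edgeR adjusted p = 5.43e-05). ENSRNOG00000003872 fell 2.61-fold, from 24.2 to 42.0 CPM down to 8.86 to 14.2 CPM (edgeR adjusted p = 5.94e-05). None of these 4 genes had overlapping arms.

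Of the 16 pathway lists drawn up for microglia and LPS, 8 had at least 1 member with an identifier, and 14 of 251 symbols could be looked up. All 3 chemokines looked up (Cxcl1, Cxcl9 and Cxcl10) and all 3 cytokines or growth factors (Il1a, Il6 and Csf3) were raised, against 8.15% of all tested genes. Of the 4 adhesion and vascular genes, Sele, Icam1 and Plat were raised and S1pr3 did not pass. The median log2 fold change of the 3 chemokines was 8.23, or 6.21 with Cxcl9 set at its lower bound. These members overlap the study's list, so the counts are not a sample of each pathway.

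Calls were also counted by abundance. Classes were first set by the mean over all 12 samples, so a rise with LPS moves a gene toward a higher class and a fall toward a lower one. Among the 3153 genes with a mean below 5 CPM, 165 were raised and 116 lowered, so 8.91% changed. Between 5 and 50 CPM the directions were even, with 414 raised and 407 lowered of 5726 genes (14.3%). Between 50 and 500 CPM 440 of 3698 genes were raised and 188 lowered (17.0%), so that 70.1% of the calls were raised. Above 500 CPM 29 were raised and 9 lowered of 283 (13.4%, 76.3% of calls raised). With scaling by library size alone the raised share was 55.9% between 50 and 500 CPM and 65.7% above 500 CPM, but 38.9% between 5 and 50 CPM, where lowered genes were then in the majority. Lowered genes between 50 and 500 CPM numbered 287 under that scaling. Without Male Nx LPS 2 the counts below 5 CPM were 201 raised and 167 lowered, those between 5 and 50 CPM were 484 raised and 580 lowered, and the raised share was 68.8% between 50 and 500 CPM and 73.5% above. With classes set by the mean of the 6 vehicle samples instead, the raised share did not climb with abundance. It was 75.2% below 5 CPM (258 raised, 85 lowered), 53.6% between 5 and 50 CPM (449 and 388), 58.3% between 50 and 500 CPM (329 and 235) and 50% above 500 CPM (12 and 12). This classing has the opposite limit. Genes scarce in vehicle could pass the CPM filter through LPS samples, and those with no vehicle count could only be raised. A vehicle mean that is low by sampling also favours a rise, so the shares by class are descriptions. The sizes of the changes fell with abundance in either way of classing for raised genes, from a median log2 rise of 2.07 below 5 CPM to 0.47 above 500 CPM by vehicle level. By the mean over all 12 samples the median log2 rise was 1.99 below 5 CPM and 0.70 above 500 CPM, and the median log2 fold change of lowered genes was −1.29 and −0.56. Over all tested genes the median standard error was 0.38 in the scarcest class and 0.14 in the most abundant. The median changes cover called genes only. Where errors are larger, only larger changes pass, so the threshold itself favours larger medians among scarce genes.

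**Figure D3:**
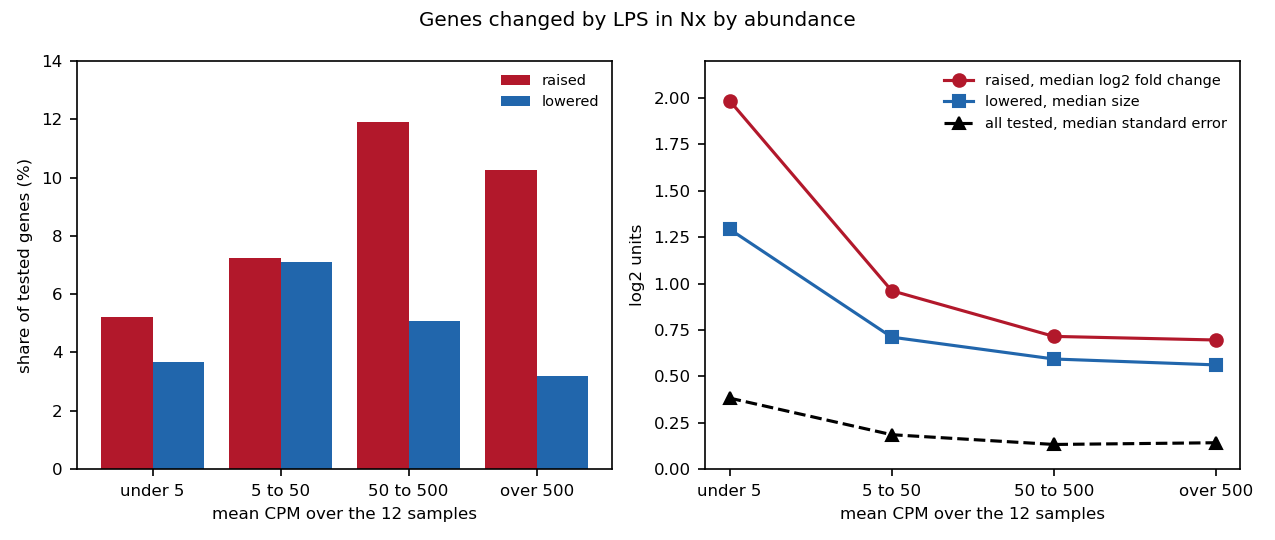
Genes changed by LPS in Nx in 4 classes of mean CPM over all 12 samples, the treated ones included. Left, bars give the percent of tested genes raised (red) or lowered (blue). Right, points give the median log2 fold change of raised genes, the median size for lowered genes and the median standard error of all tested genes, joined by lines as a guide; all 3 are highest below 5 CPM.

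Genes that had been called raised took 6.73% to 7.08% of all counts in vehicle samples. In LPS samples they took 12.1% to 13.6%, except in Male Nx LPS 2, where the share was 8.95%. Lowered genes took 4.44% to 5.38% of counts without and 2.63% to 3.20% with LPS, and 3.79% in Male Nx LPS 2. These shares describe the calls, since the same samples chose the genes. The gain in CPM was spread over many genes: the 10 largest gainers held 16.4% of it and the 100 largest held 53.1%. Of the loss, the 10 largest held 19.1% and the 100 largest 59.4%.

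To describe how alike the samples were, each LPS value was set against the range of the 6 vehicle values. In 544 raised genes (51.9%) all 6 LPS samples lay above all 6 vehicle samples, against 4.37% of all tested genes. In 294 lowered genes (40.8%) all lay below, against 2.52% of all tested genes. A further 398 raised genes had 5 of 6 LPS samples above, and the exception was Male Nx LPS 2 in 310 of them (77.9%). For the 289 lowered genes with 5 of 6 below, it was the exception in 199 (68.9%). Without that sample, 962 of the 1277 raised genes (75.3%) had the other 5 LPS samples above all vehicle samples, against 7.95% of all tested genes. For the 1012 lowered genes the number below was 637 (62.9%), against 5.45%.

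The same was seen when a sample had no part in choosing the genes. For each LPS sample, genes were called in a fit without it, and its log2 differences from the vehicle samples of its sex were taken. Over raised genes the median was 1.03 in Male Nx LPS 1, 1.23 in Male Nx LPS 3, and 0.97, 0.93 and 1.22 in the females. In Male Nx LPS 2 it was 0.31 over 1277 genes. Over lowered genes the medians ran from −0.91 to −0.59 in 5 samples, and in Male Nx LPS 2 the median was −0.25 over 1012 genes. In that sample 51.4% of raised genes lay above all vehicle samples and 39.9% of lowered genes below, against 84.9% to 97.9% and 77.1% to 95.9% in the others. The share of all tested genes beyond the vehicle range was not counted for single samples, so these percents only compare the samples. Over the 12 NF-κB targets the median log2 difference was 1.23 in Male Nx LPS 2 and 3.25 to 5.17 in the others. Without it the median fitted log2 fold change of the 12 was 5.08. With 7209119 counts, it was neither the deepest nor the shallowest library, and why it differed was not tested.

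**Figure D4:**
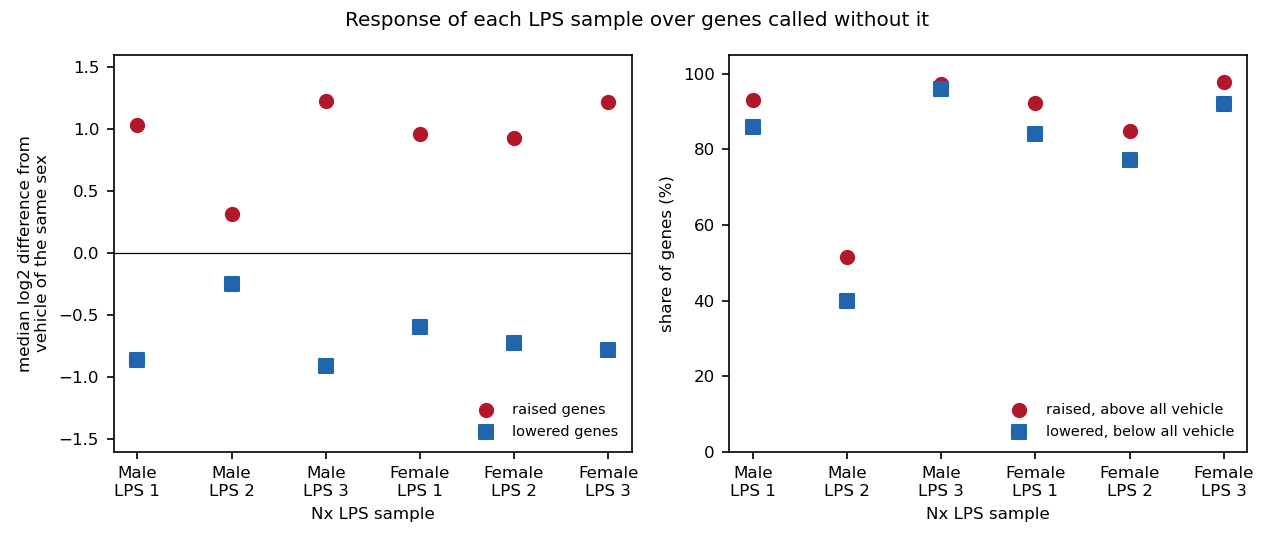
Response of each Nx LPS sample over the genes called without that sample. Left, the median log2 difference from the vehicle samples of the same sex for raised (red circles) and lowered (blue squares) genes. Right, the percent of these genes beyond all 6 vehicle samples, which is not set against all tested genes. Male Nx LPS 2 is nearest to 0 on the left, at 0.31 and −0.25, and lowest on the right.

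Over the whole transcriptome, distances between samples were taken as the leading log2 fold change over the 500 genes that differed most in each pair. LPS accounted for 31.8% of the summed squared distances, against a mean of 8.83% over the 400 ways of exchanging the LPS labels within sex (exact permutation test, upper tail, p = 0.005, which is the smallest p these labellings can give). On the first axis of a multidimensional scaling of these distances, which held 34.1% of the variation, vehicle samples lay between −1.05 and −0.91. LPS samples lay between 1.04 and 1.29, except for Male Nx LPS 2 at 0.07. Without that sample the share due to LPS was 36.2%.

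Pooling the sexes rests on a like response in both. An unequal effect of LPS in males and females passed the threshold in 0 of 12860 genes, or 0.0% (edgeR quasi-likelihood F test of the interaction), and 139 genes had an unadjusted p below 0.05. DESeq2 likewise called 0 genes (119 unadjusted), the edgeR likelihood ratio test 0 (153) and limma voom 0 (1095). Without any effect, a share of 0.05 of the genes would fall below that p. The edgeR and DESeq2 numbers lie under that share, and that of voom lies above it. With 3 samples per group, 0 calls do not show that the sexes responded alike. When each sex was fitted alone, 107 genes (0.832%) were called in males and 482 (3.75%) in females, and 86 were called in both. All 107 male calls had the same direction in females, and 104 of them had an unadjusted p below 0.05 there, as had 17.5% of all tested genes. Of the female calls, 481 of 482 had the same direction in males, against 73.1% of all tested genes, and 430 had an unadjusted p below 0.05, as had 13.5% of all tested genes. The 388 genes raised in females had a median log2 rise of 1.66 in females and 1.42 in males, and the 99 raised in males had 2.63 in males and 2.61 in females. Each set was chosen in its own sex, so these medians are descriptions. Of the 12 NF-κB targets, all were higher with LPS in both sexes, and 2 passed the threshold in males and 11 in females. Their smallest interaction p was 0.199 before adjustment. The study chose these targets with the Female Nx LPS samples, so their counts in males and females are not on an equal footing. Without Male Nx LPS 2, which leaves 2 treated males, 787 genes (6.12%) were called in males, 560 raised and 227 lowered, among them all 12 targets. Of these calls 782 had the same direction in females and 365 were called there too. The interaction then passed in 0 genes, with 187 at an unadjusted p below 0.05.

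**Figure D5:**
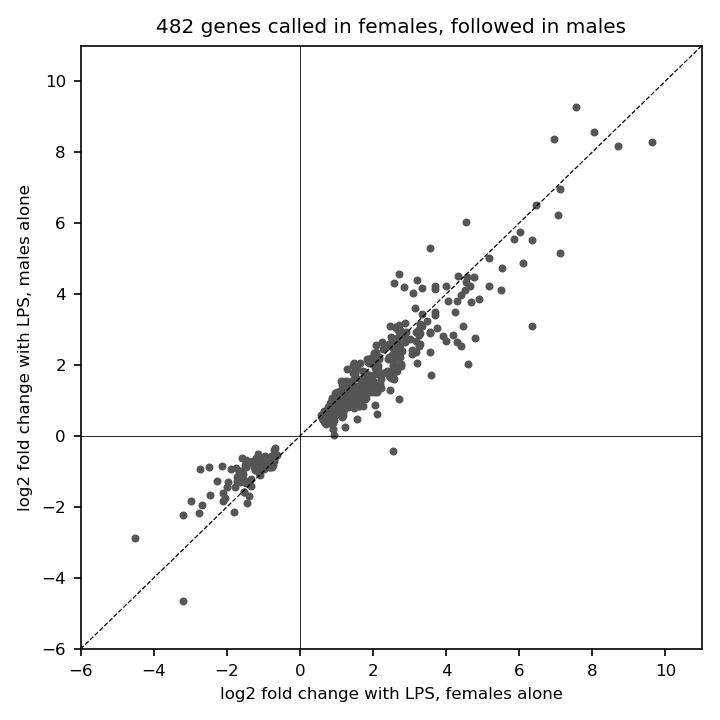
Log2 fold change with LPS in males alone (vertical axis) against females alone (horizontal axis) for the 482 genes called in females. Each point is a gene and the dashed line marks equal change; 481 of the 482 points have the same sign in both sexes.

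The IH samples, which share no sample with this comparison, gave a further view of the same genes. With LPS against vehicle in IH, 613 genes were raised (4.77%) and 251 lowered (1.95%). Of the 1048 genes raised in Nx, 1046 had the same direction in IH, and of the 720 lowered genes 717 had it, against 78.4% of all tested genes. Raised in both were 559 genes, which is 53.3% of the Nx calls and 91.2% of the IH calls. Lowered in both were 180 genes, which is 25% of the Nx calls and 71.7% of the IH calls, and 0 genes were called in opposite directions. With the Nx calls made without Male Nx LPS 2, 565 genes were raised and 193 lowered in both. The median log2 fold change of genes raised in Nx was 0.70 in IH, and that of genes lowered in Nx was −0.46. All 12 NF-κB targets were raised in IH, with a median log2 fold change of 4.69. The study had listed these targets as lower in IH LPS than in Nx LPS females, which favours a smaller change in IH. Because the genes had been called in Nx, their medians there and in IH are not on an equal footing, and the difference between Nx and IH was not tested.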

How the data were processed

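RNA was sequenced from 24 samples, of which the 12 Nx samples entered the main comparison. The authors prepared stranded mRNA libraries, aligned reads with TopHat 2.1.0 (genome build rn6 per the submitters' notes), counted reads per gene with HTSeq 0.6.1 in its reverse-stranded mode and deposited raw counts per gene without normalization. Summary lines (5 per file) were left out of library sizes; in the 12 samples, 14.7% to 20.2% of all listed reads had no feature and 11.7% to 23.4% were not unique.

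Groups came from the sample titles. A gene was kept where 3 or more of all 24 samples exceeded 1 CPM (counts scaled to a library of one size), which left 12860 of 32754. Counts were scaled by TMM and fitted with sex and LPS as terms in R 4.3.3 with edgeR 4.0.16 (quasi-likelihood F test, Benjamini-Hochberg FDR below 0.05). limma 3.58.1, DESeq2 1.42.0 and other scalings, filters and left-out samples served as alternatives. Single values were compared by exact permutation within sex. CPM values are TMM-scaled. Errors of log2 fold changes are approximate standard errors, taken as the size of the change divided by the square root of its F statistic. Replicates differed by more than sampling noise (chi-square per degree of freedom 8.59 to 52.9), so none was counted as a duplicate.

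The samples and gene lists were chosen with earlier results of these data known. The rule named the genes with the largest changes, list members, the NF-κB targets and other genes that the study names, in each case only with a symbol paired to the identifier; this left 21 genes, besides the 2 raised and 2 lowered identifiers with the smallest p. No marker list had a member with an identifier. For the same reason κB and other motifs could not be counted over all raised and lowered genes. The comparison with IH, the scaling by library size alone, the descriptions without Male Nx LPS 2 and the abundance classes by vehicle level were added after the data had been seen.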

Additional observations from a re-analysis of the deposited data

Results flagged for a closer look

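In groups of 6 samples, 64 sets of values were examined for a highest or lowest sample whose gap to its neighbour is large against the whole range (Dixon's ratio past its 95% critical value). Chance flags about 1 in 20 such sets, or about 3 of 64, and 15 were found.

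Of these, 7 were low values of Male Nx LPS 2 among the LPS samples. Normalized expression in that sample was 20.2 CPM for Il1a, 11.8 CPM for Birc3, 155.9 CPM for Irf1, 0.135 CPM for Csf3, 224 CPM for Icam1 and 121 CPM for Cxcl10, and the median log2 difference over raised genes was 0.31. The cause was not tested.

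Among the other LPS samples, Plat was high in Male Nx LPS 1, at 114 CPM, and Cyp4f39 was at 0 CPM there. Cd7 was high in Female Nx LPS 2, at 15.1 CPM, and RGD1561143 was low in Female Nx LPS 3, at 4.98 CPM.

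Among vehicle samples, 3 sets stood out in Male Nx 2. Its share of reads that were not unique was 23.4%, Cd7 reached 40.3 CPM and Cyp4f39 was at 0 CPM. Sele was detected in Female Nx 1 only, at 0.138 CPM, which is 1 count.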

How the results depend on the processing

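No call changed direction under any alternative run, though the raised share of calls crossed 50% (59.3% against 47.6% with library size alone). Against 1768 calls (1048 raised, 720 lowered), limma voom with sample quality weights called 3674 (1848 raised, 1826 lowered) and the test against a 1.5-fold change called 380 (334 raised, 46 lowered), the latter by its stricter null. Leaving out 1 sample at a time gave 1179 to 2289 calls, 785 to 1277 raised and 394 to 1012 lowered. The interaction with sex gave 0 to 2 genes when 1 sample was left out, 1 without Male Nx 2 and 2 without Female Nx 3. The share of distance due to LPS was 30.7% to 36.2% with 1 sample left out, 28.8% with a prior count of 0.5, 29.0% over all tested genes and 31.9% with 100 genes per pair, against 31.8%. Under the other alternatives the counts of changed, raised and lowered genes over all tested genes stayed within 1.5 times of those reported; with library size alone, lowered genes between 50 and 500 CPM went from 188 to 287. Calls per sex and in IH were not refitted under these alternatives, apart from males without Male Nx LPS 2.

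Replicate numbers are shared between arms, but same-numbered samples did not deviate together in females (correlations −0.39, −0.57 and −0.02, against 0.17, 0.38 and 0.28 in males), so the numbers were not taken to pair the samples. With the replicate number as a block 1656 genes were called (1007 raised, 649 lowered), and with 6 pairs as a block 1312 (826 raised, 486 lowered). The share of distance was 52.7% after centring on these pairs.

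Of 625 refits of the 25 named genes, 611 stayed on their side of the threshold. The 12 NF-κB targets passed in all of theirs, with adjusted p-values of at most 0.0270. Plat missed the threshold in 8, with adjusted p-values up to 0.260. AC134224.3 passed in 4, without Female Nx 2 among them (0.0158), and Slc25a45 in 2, without Female Nx 1 among them (0.0402). Where no cause is given, it was not tested.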
